A study of Schmidtea mediterranea with 58 samples.

Results

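The planarian nervous system was followed at the wound through a pair of marker transcripts, *pc2* (dd_Smed_v6_1566_0_1) and *chat* (dd_Smed_v6_6208_0_1). They were taken by their identifiers as 2 of the 28742 transcripts in the count table, and both passed the filter on low counts that left 20129 transcripts for testing. The study sequenced polyadenylated RNA from anterior-facing wounds of tail (post-pharyngeal) fragments of *Schmidtea mediterranea*, a flatworm that rebuilds missing body parts, in 58 bulk libraries. *equinox* is a gene of the wound epidermis, and the comparison asks whether wounds of animals fed its dsRNA differ from control wounds over the first hours of regeneration. The 29 control libraries came from animals of the clonal asexual strain CIW4 fed liver with double-stranded RNA (dsRNA) of *unc-22*, a nematode gene. The other 29 came from animals of the same strain fed *equinox* dsRNA, and all animals were of wild-type genotype. Both treatments had 8 feedings, with amputation 7 days after the last one according to the sample labels (the methods name a shorter wait). Fragments were taken at once after the cut (0 hours post amputation, hpa) and then at 3, 6, 16, 24 or 48 hpa, with 5 wounds pooled into each replicate. Most of the 12 groups held 5 libraries, whereas the control at 48 hpa and the libraries labelled *equinox* RNAi at 0 hpa numbered 4 each. The age of the animals is not given in the sources used here.

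The planarian nervous system consists of a bilobed brain in the head and a pair of ventral nerve cords that run to the tail, so a tail fragment holds nerve cord and peripheral neurons but no brain until a new one is made. *pc2* encodes prohormone convertase 2, the protease that cuts neuropeptide precursors into active peptides, and its transcript is widely used to stain the whole planarian nervous system. *chat* encodes choline acetyltransferase, the enzyme that makes the transmitter acetylcholine, and its transcript labels cholinergic neurons. In RNA from a bulk fragment, fewer cells of a type and less RNA per cell cannot be told apart.

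Libraries held between 1312330 and 38053378 counts. *pc2* had 162 to 6801 counts per library with a median of 2338, and *chat* 73 to 2865 with a median of 946. The counting error alone was thus 1.21% to 7.86% for *pc2* and 1.87% to 11.7% for *chat*. Its medians, 2.07% and 3.25%, were below the SD of every group. In control at 3 hpa, however, the SD was 7.67% of the mean for *pc2* and 8.54% for *chat*. The highest errors, those of replicate 3 in that group, were above both. Levels are given as CPM (counts scaled to a common library size) after composition factors from trimmed means of M-values, TMM, and they do not correct for transcript length, so the levels of the 2 transcripts are not compared with each other. The *equinox* transcript (dd_20318) lay lower in *equinox* RNAi than in control from 6 hpa on, at 1.44 to 2.74 CPM as group means against 6.92 to 15.1 CPM. At 0 and 3 hpa it went against the labels, with group means of 18.6 and 16.9 CPM and single libraries from 1.77 to 39.3 CPM, against 6.03 and 5.19 CPM in control. Libraries of those times are therefore called the libraries labelled *equinox* RNAi, and each comparison with 0 hpa in this treatment rests on them. In 5 *equinox* RNAi libraries the title and the separate time label disagree, and the title was used. By title they are replicate 1 of every time after 0 hpa, and each bears the time label of the group before it. Nothing in the labels says which replicates share a culture or day, so p-values measure the spread between these pools only.

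In control wounds *pc2* rose by about 1.5-fold at 6, 16 and 24 hpa, whereas no change of *chat* was called at any time. Over all 21 comparisons made of each transcript, edgeR called *chat* in 0, against 3 at an unadjusted p under 0.05 and 1 in DESeq2 (control at 48 hpa). *pc2* measured 105.3, 105.9, 154.8, 99.0 and 117.1 CPM in the 5 libraries of 0 hpa (116.4 ± 22.4, SD, n = 5). At 3 hpa the libraries held 106.3, 106.1, 109.8, 111.8 and 127.0 CPM (112.2 ± 8.61, n = 5). The groups at 0 and 3 hpa overlapped, and 1 library of 0 hpa, replicate 3, stood above all others of both times.

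At 6 hpa *pc2* measured 149.9, 121.8, 132.9, 206.8 and 277.8 CPM (177.9 ± 64.8, n = 5). Replicates 4 and 5 were far above the other libraries, and the lower ones fell within the range of 0 hpa. The fold change was 1.53, or 0.61 on the log2 scale (SE 0.17), with an adjusted p of 0.0169 in edgeR's quasi-likelihood test, and 8.93% of all tested transcripts were called in this comparison, 5.21% of all as higher. The call was lost without control replicate 4 or 5 of 6 hpa (log2 0.55 and 0.39, adjusted p = 0.0649 and 0.179) and without replicate 1 or 4 of 0 hpa (0.57 and 0.56, adjusted p = 0.0503 and 0.0547). It was also lost when only the groups compared were fitted (0.62, adjusted p = 0.126).

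At 16 hpa the control libraries held 150.2, 142.9, 139.2, 168.0 and 233.3 CPM of *pc2* (166.7 ± 38.8, n = 5). All but replicate 5 lay close together, just below or above the highest library of 0 hpa. The fold change was 1.44 (log2 0.52, SE 0.17, adjusted p = 0.0255, edgeR), where 18.5% of transcripts were called, 9.23% as higher. It was not called without replicate 5 of 16 hpa (log2 0.37, adjusted p = 0.157) or without replicate 1, 2 or 4 of 0 hpa (0.49, 0.49 and 0.47, adjusted p = 0.0659, 0.0636 and 0.0773).

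At 24 hpa *pc2* measured 197.8, 146.3, 150.9, 160.3 and 197.2 CPM (170.5 ± 25.2, n = 5). Of these libraries 3 lay above every library of 0 hpa and the other 2 just under its highest one. The fold change of 1.47 (log2 0.55, SE 0.17, adjusted p = 0.0110, edgeR) was called in all 10 fits that left out 1 library and in all 8 other alternatives. It stood in a comparison that called 33% of transcripts, 15.3% as higher, and by its log2 fold change *pc2* ranked 2129th from the top of 20129.

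At 48 hpa the 4 control libraries spread widely, with 111.1, 143.0, 188.6 and 173.7 CPM of *pc2* (154.1 ± 34.4, n = 4). Replicates 1 and 2 were within the levels of 0 hpa, whereas replicates 3 and 4 stayed above them. The difference from 0 hpa was 0.41 on the log2 scale (SE 0.18, adjusted p = 0.0838, edgeR) and was not called, where 29.5% of transcripts were. It was called with library totals alone (log2 0.43, adjusted p = 0.0187) and in fits without replicate 3 of 0 hpa or replicate 1 of 48 hpa (0.53 and 0.56, adjusted p = 0.0269 and 0.0211). At 3 hpa the difference was -0.051 (SE 0.17, adjusted p = 0.935), where 3.17% of transcripts were called.

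**Figure D1:**
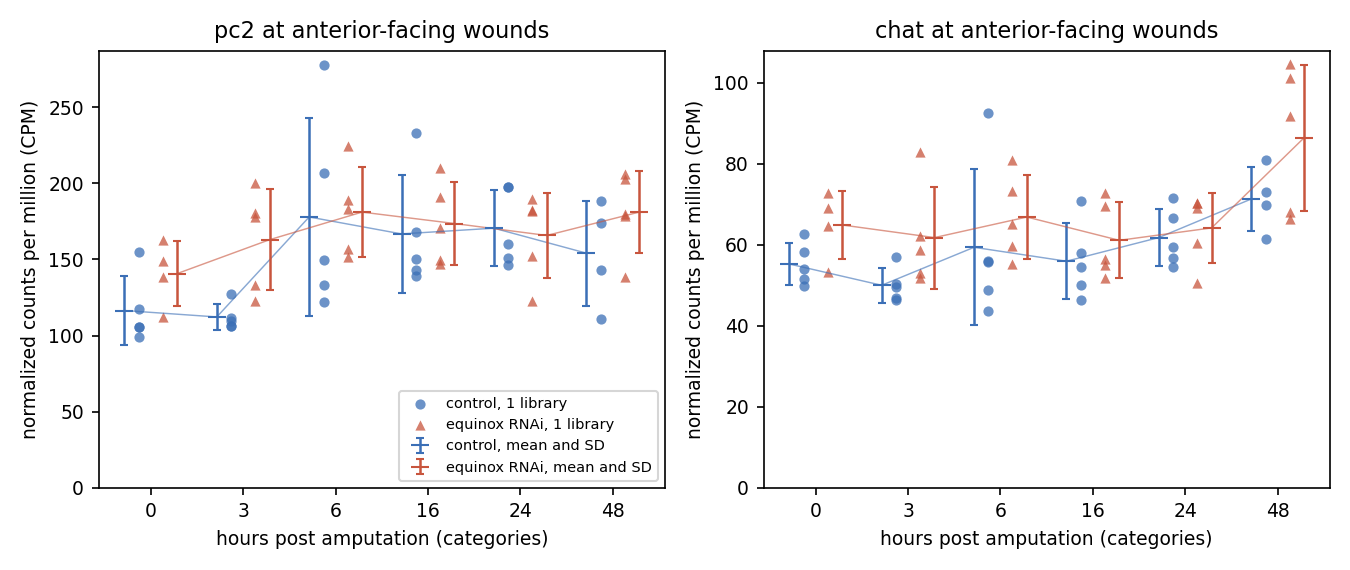
Normalized counts (CPM, scaled to a common library size) of *pc2* (left) and *chat* (right) against hours post amputation, drawn as evenly spaced categories, with circles for control libraries, triangles for *equinox* RNAi libraries, and bars for the group mean and SD. Control *pc2* goes from a mean of 116.4 CPM at 0 hpa to 177.9 CPM at 6 hpa, where 2 libraries lie above 200, while *chat* is highest at 48 hpa in both treatments.

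*chat* in control wounds stayed near its starting level until 24 hpa. It measured 54.1, 51.5, 62.6, 49.8 and 58.3 CPM at 0 hpa (55.3 ± 5.21, n = 5). It measured 46.3, 46.9, 49.5, 50.4 and 57.0 CPM at 3 hpa (50.02 ± 4.27, n = 5). All of the 3-hpa libraries lay below the highest of 0 hpa, and the groups overlapped.

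At 6 hpa the control libraries held 56.0, 43.6, 48.9, 55.9 and 92.6 CPM of *chat* (59.4 ± 19.3, n = 5), and replicate 5, the same library that was highest for *pc2*, stood apart. At 16 hpa they held 57.9, 49.97, 46.4, 54.6 and 70.9 CPM (56.0 ± 9.44, n = 5), again with replicate 5 highest. At 24 hpa they held 66.6, 56.7, 59.5, 54.6 and 71.6 CPM (61.8 ± 7.11, n = 5). The log2 differences from 0 hpa at 3, 6, 16 and 24 hpa were -0.14, 0.099, 0.024 and 0.17, with SE of 0.15 each and adjusted p from 0.397 to 0.941 (edgeR). The 95% intervals at 6 and 16 hpa ran from -0.19 to 0.39 and from -0.26 to 0.31.

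At 48 hpa the control libraries reached 61.5, 69.9, 72.9 and 80.9 CPM of *chat* (71.3 ± 8.01, n = 4). Of these, 3 lay above every library of 0 hpa, and replicate 1 fell just under its highest one. The difference of 0.37 on the log2 scale (SE 0.15, adjusted p = 0.0609, edgeR) missed the threshold. It was called in 6 of 8 alternatives, with log2 values from 0.37 to 0.41 and adjusted p from 0.00678 to 0.0766 over all 8, and in 2 of 9 fits that left out 1 library (without replicate 3 of 0 hpa, 0.42, adjusted p = 0.0450, and without replicate 1 of 48 hpa, 0.46, adjusted p = 0.0284).

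In the *equinox* RNAi series neither transcript was called against 0 hpa at any time (edgeR and DESeq2, 0 of 5 times each). At an unadjusted p under 0.05 there were 0 for *pc2* and 1 for *chat*. *pc2* measured 163.0, 111.9, 149.2 and 138.7 CPM in the 4 libraries labelled *equinox* RNAi at 0 hpa (140.7 ± 21.6, n = 4). At 3 hpa the libraries so labelled held 133.3, 122.9, 200.4, 180.3 and 177.8 CPM (162.9 ± 33.2, n = 5). Of the 5 libraries at 3 hpa, 3 were above all of 0 hpa and 2 were within its range.

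At 6 hpa *equinox* RNAi wounds held 224.6, 189.2, 156.5, 151.6 and 183.3 CPM of *pc2* (181.0 ± 29.3, n = 5). At 16 hpa they held 191.0, 149.5, 146.7, 170.6 and 210.0 CPM (173.6 ± 27.1, n = 5). Both groups overlapped with 0 hpa in their 2 lowest libraries only. At 24 hpa the values were 181.9, 122.6, 182.7, 189.4 and 151.9 CPM (165.7 ± 28.1, n = 5), and at 48 hpa they were 179.9, 205.8, 202.6, 178.2 and 138.7 CPM (181.1 ± 26.9, n = 5). These later groups reached into the range of 0 hpa with 2 libraries and 1 library.

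The log2 differences of *pc2* from 0 hpa in this treatment were all positive, at 0.21, 0.36, 0.30, 0.24 and 0.36 for 3, 6, 16, 24 and 48 hpa, with SE of 0.18 each. The adjusted p (edgeR) ran from 0.242 to 0.861, in comparisons that called 1.37%, 5.42%, 12.2%, 5.96% and 6.71% of transcripts. The interval at 6 hpa, from 0.0071 to 0.72, takes in the change seen in control. It leaves out 0 only because 1.96 SE is slightly narrower than the test, whose unadjusted p was 0.0508 (edgeR).

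*chat* measured 72.8, 53.2, 69.0 and 64.6 CPM in the libraries labelled *equinox* RNAi at 0 hpa (64.9 ± 8.47, n = 4). At 3 hpa the libraries so labelled held 53.1, 51.8, 83.0, 62.2 and 58.8 CPM (61.8 ± 12.6, n = 5), and replicate 3 was the one library above the range of 0 hpa. At 6 hpa the values were 80.9, 73.4, 55.4, 59.6 and 65.1 CPM (66.9 ± 10.3, n = 5). These groups overlapped throughout, as did the later ones until 24 hpa.

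At 16 hpa *chat* held 72.9, 54.9, 56.4, 51.9 and 69.5 CPM in *equinox* RNAi wounds (61.1 ± 9.41, n = 5). At 24 hpa it held 70.4, 50.5, 69.1, 70.4 and 60.6 CPM (64.2 ± 8.70, n = 5). At 48 hpa it reached 91.7, 104.7, 101.1, 68.1 and 66.5 CPM (86.4 ± 18.1, n = 5). The 48-hpa libraries fell into 3 high ones above every library of 0 hpa and 2 low ones within its range. The difference from 0 hpa at 48 hpa was 0.41 on the log2 scale (SE 0.15, 95% interval 0.11 to 0.71, adjusted p = 0.0987, edgeR), and the earlier differences lay between -0.088 and 0.042. The 48-hpa value was called with library totals alone (0.42, adjusted p = 0.0274) and without replicate 4 or 5 of 48 hpa (both 0.49, adjusted p = 0.0453 and 0.0402).

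Between the treatments, *pc2* at 3 hpa was the only difference called among 6 times and both transcripts. The libraries labelled *equinox* RNAi, listed above, ran from 122.9 to 200.4 CPM against 106.1 to 127.0 CPM in control, so 1 of the former lay within the control range. The fold change was 1.45 (log2 0.54, SE 0.17, adjusted p = 0.0371, edgeR), with 11.3% of transcripts called at this time, 5.78% as higher. It is the least firm of the calls: in 7 of 10 fits that left out 1 library it was lost, with log2 values from 0.45 to 0.62 and adjusted p from 0.0184 to 0.138 over the 10. Those 7 libraries were control replicates 1, 2, 3 and 4 and the replicates 3, 4 and 5 labelled *equinox* RNAi. It was also lost with RLE size factors (0.52, adjusted p = 0.0506) and with library totals alone (0.36, adjusted p = 0.0774), a scaling under which the median of all transcripts moved by 0.16 at this time. The *equinox* transcript went against its labels in this group, as given above, and the part of that in the difference was not tested.

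At 48 hpa *pc2* differed between *equinox* RNAi and control by 0.23 (95% interval -0.12 to 0.59) and *chat* by 0.28 (-0.021 to 0.58), both log2, with adjusted p of 0.395 and 0.207 (edgeR). At this time 17.5% of all transcripts were called. At 0 hpa the differences were 0.28 for *pc2* and 0.23 for *chat* with adjusted p of 0.483 and 0.480, where 1.42% of transcripts were called. At 6, 16 and 24 hpa *pc2* differed by 0.029, 0.057 and -0.042 and *chat* by 0.18, 0.12 and 0.054, in comparisons that called 7.66%, 0.606% and 1.25% of transcripts.

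These intervals leave room for differences of up to about 1.5-fold at 48 hpa, so equal levels were not shown. For *chat* at 3 hpa the value was 0.30 (SE 0.15, adjusted p = 0.158), and it was called when the 5 libraries with disagreeing labels were placed by their time field (0.43, adjusted p = 0.0316). Whether the change from 0 hpa differs between treatments was tested as an interaction, which was not called for either transcript at any of the 5 times in edgeR or DESeq2, nor under an unadjusted p of 0.05. Its values lay between -0.32 and 0.26 for *pc2* and between -0.18 and 0.067 for *chat*, with adjusted p of 0.590 or more, and 0.00497%, 0.0894%, 0.0248%, 0.233% and 5.08% of transcripts were called in those tests. The rise of *pc2* called in control only is therefore not shown to differ from the change in *equinox* RNAi.

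**Figure D2:**
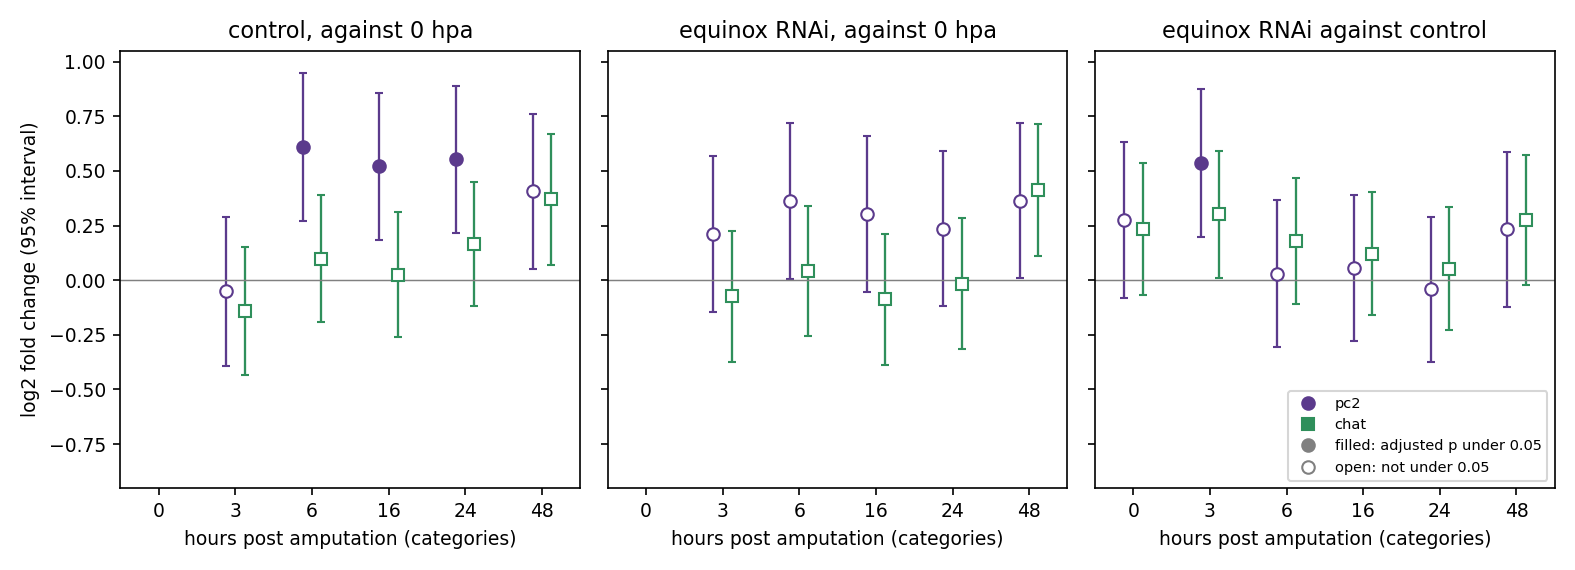
Log2 fold changes with 95% intervals for *pc2* (circles) and *chat* (squares), against 0 hpa within control (left) and within *equinox* RNAi (middle) and between treatments at each time (right); filled symbols have an adjusted p under 0.05. The 4 filled symbols are *pc2* at 6, 16 and 24 hpa in control (0.61, 0.52 and 0.55) and *pc2* between treatments at 3 hpa (0.54). Intervals are 1.96 SE either way, slightly narrower than the test.

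Ordered by mean level, *pc2* was highest in *equinox* RNAi at 48 and 6 hpa (181.1 and 181.0 CPM) and in control at 6 hpa (177.9 CPM). It was lowest in control at 0 and 3 hpa (116.4 and 112.2 CPM). *chat* was highest at 48 hpa in *equinox* RNAi and then in control (86.4 and 71.3 CPM), and lowest in control at 0 and 3 hpa (55.3 and 50.02 CPM). The highest group mean was 1.61 times the lowest for *pc2* and 1.73 times for *chat*. For both, the libraries of all 11 pairs of neighbours in the order overlapped, while the top and the bottom group did not.

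The ratio of *pc2* to *chat* counts within a library needs no scaling, and it separated the times more sharply than either level did. It is described here without a test. Its deviations from the group means still went with the TMM factor (r = -0.54 over 58 libraries, both on the log2 scale). In control the 5 libraries of 0 hpa had ratios of 1.95, 2.06, 2.47, 1.99 and 2.01, and those of 3 hpa lay between 2.22 and 2.30. At 6 hpa the ratios were 2.68, 2.79, 2.72, 3.70 and 3.00, at 16 hpa they ran from 2.60 to 3.29, and at 24 hpa from 2.53 to 2.97. Every control library of 6, 16 and 24 hpa was above every one of 0 hpa, with group means 1.42, 1.42 and 1.32 times that of 0 hpa.

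As a background for these separations, the ratio of *pc2* to each other tested transcript was taken in turn. It was higher without overlap at 6 than at 0 hpa for 7.94% of transcripts, at 16 hpa for 21.2%, and at 24 hpa for 25.4%. A separation from *chat* at 16 and 24 hpa was thus shared by a good part of the transcriptome, and at 6 hpa by fewer. The ratio in control at 48 hpa was 1.81, 2.05, 2.59 and 2.15, which overlapped with 0 hpa, and 1 of the 4 libraries lay above all of 0 hpa.

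With *equinox* dsRNA the ratio was also higher from 6 to 24 hpa than at 0 hpa, and every library of 3 hpa already lay above those of 0 hpa. In control the libraries of 3 hpa (2.22 to 2.30) were above all of 0 hpa but replicate 3 (2.47). That library alone makes those control groups overlap, so a different start of the rise is not shown. The 4 libraries labelled *equinox* RNAi at 0 hpa had ratios of 2.24, 2.102, 2.16 and 2.15. All libraries of 3, 6, 16 and 24 hpa were above them, with ranges of 2.37 to 3.02, 2.54 to 2.83, 2.60 to 3.29 and 2.43 to 2.69. The ratio of *pc2* to each other transcript was higher than at 0 hpa without overlap for 2.48%, 14.6%, 15.7% and 4.26% of transcripts at these times. At 48 hpa 4 of 5 libraries had returned to 1.96, 1.97, 2.01 and 2.09, below all of 0 hpa, and replicate 4 alone stayed at 2.62.

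Between treatments the ratio separated at 3 hpa, where all 5 libraries labelled *equinox* RNAi (2.51, 2.37, 2.41, 2.90 and 3.02) were above the 5 of control. The gap was narrow, from 2.30 in control to 2.37. The control ratios had a SD of 0.033 around a mean of 2.25, although replicate 3 held 73 counts of *chat*, a counting error of 11.7%. Whether the separation exceeds the counting error of the ratio was not tested. The ratio of *pc2* to each other transcript was higher there without overlap for 15.1% of transcripts. At the other times the ratios of the treatments overlapped. In the order of group means over the 12 groups there was a single gap without overlap, between 2.57 in *equinox* RNAi at 24 hpa and 2.25 in control at 3 hpa. Above it stood every group of 6 to 24 hpa and the libraries labelled *equinox* RNAi at 3 hpa, and below it both groups of 0 hpa, control at 3 hpa and both groups of 48 hpa.

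**Figure D3:**
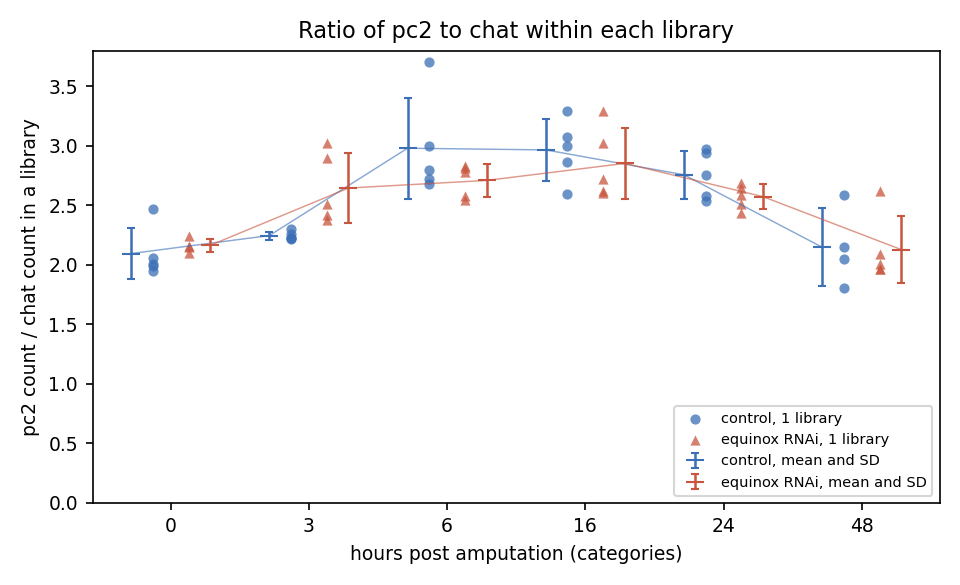
Ratio of *pc2* to *chat* counts in each library against hours post amputation, drawn as evenly spaced categories, with circles for control, triangles for *equinox* RNAi, and bars for the group mean and SD. The means climb from 2.09 and 2.16 at 0 hpa to 2.96 and 2.85 at 16 hpa and come back to 2.15 and 2.13 at 48 hpa, with 1 high library in each treatment at 48 hpa.

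Within groups the 2 transcripts moved together from library to library. Their log2 CPM had a Pearson r of 0.75 over the 58 libraries and 0.88 for deviations from the group means, points that share library, depth and scaling. Across the 12 group means r was 0.58. By r over the 58 libraries *chat* ranked 951st for *pc2* among 14134 transcripts with a mean log2 CPM of at least 1, and *pc2* ranked 421st for *chat*. The 5 transcripts most like *pc2* were dd_38, dd_2110, dd_1656, dd_854 and dd_1511, with r from 0.92 to 0.94, and those most like *chat* were dd_4949, dd_6863, dd_6114, dd_15033 and dd_3135, with r from 0.89 to 0.90. None of the 10 has a name in the annotation used here, which covers 1200 of the 28742 transcripts, so a lack of any match is not shown.

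The deviations of *pc2* from its group means also followed the summed levels of other transcript lists and the scaling. Lists were made from the best human match of each transcript in the part of an annotation table of the study that was used here. That part covers 1200 transcripts, 730 of them with a match, so the lists are not full sets of their kind. A further table of the study pairs none of those 730 with the same match, so the names below rest on the one table. Deviations of the summed CPM of 6 muscle transcripts had r of 0.83 with those of *pc2* and 0.69 with those of *chat* over 58 libraries, and 6 cell division transcripts had 0.81 and 0.77. The 18 synaptic transcripts tested had 0.66 and 0.41, and 10 cilia transcripts 0.38 and 0.55. The TMM factor itself had -0.85 and -0.69. The CPM of *pc2*, of *chat* and of the lists were all divided by this factor, so a part of these r values is built in. The size of that part was not examined, and no background of other transcripts was taken for them. Deviations of the log2 ratio of *pc2* to *chat* had r of 0.66 with the synaptic list and 0.51 with the muscle list. For the cell division list r was 0.34, for the cilia list -0.17 and for the TMM factor -0.54. Libraries with much *pc2* for their group thus also had high sums over the muscle and cell division lists and low factors. The part of this in the *pc2* calls was not tested. A sum leans on its most abundant members, and how much each member adds was not examined. The 6 muscle members did not move alike. In control at 24 against 0 hpa they ran from log2 -1.22 (dd_10293, FHL3) to 0.049 (dd_10785, COL21A1).

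Control replicates 4 and 5 of 6 hpa summed to 1182 and 1694 CPM over the muscle list, against 832 to 1049 in the other 3 libraries and 840.3 to 1234 at 0 hpa. The call of that time was lost without either of them, and also without replicate 1 or 4 of 0 hpa (840.3 and 871.9 CPM). Replicate 5 of 16 hpa, without which the 16-hpa call was lost, had 1344 CPM against 698.3 to 868.9 in the other 4. That call was also lost without replicate 1, 2 or 4 of 0 hpa (840.3, 986.4 and 871.9 CPM). At 24 hpa, where the call held in all fits that left out 1 library, the muscle list summed to 700.6 to 1163 CPM. Of its 6 members 3 were called lower than at 0 hpa and 0 higher, in a comparison that called 33% of all transcripts. The counts at 16 hpa were the same, 3 lower and 0 higher, where 18.5% of all were called. At 6 hpa 0 of the 6 were called, against 8.93% of all. The share of counts on 8 mitochondrial transcripts moved as well. In control it was 0.339% to 0.358% at 0 hpa and 0.368% to 0.652% at 6 hpa, without overlap. It was also above 0 hpa without overlap at 3 hpa (0.374% to 0.524%) and 48 hpa (0.4415% to 0.6467%), where *pc2* was not called. At 16 and 24 hpa, where *pc2* was called, it was 0.342% to 0.462% and 0.305% to 0.560%, with overlap. At 3 hpa it was 0.374% to 0.524% in control against 0.283% to 0.387% in the libraries labelled *equinox* RNAi. Its part in the *pc2* calls was not tested. None of the listed transcripts that were tested was at 0 counts in any library.

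**Figure D4:**
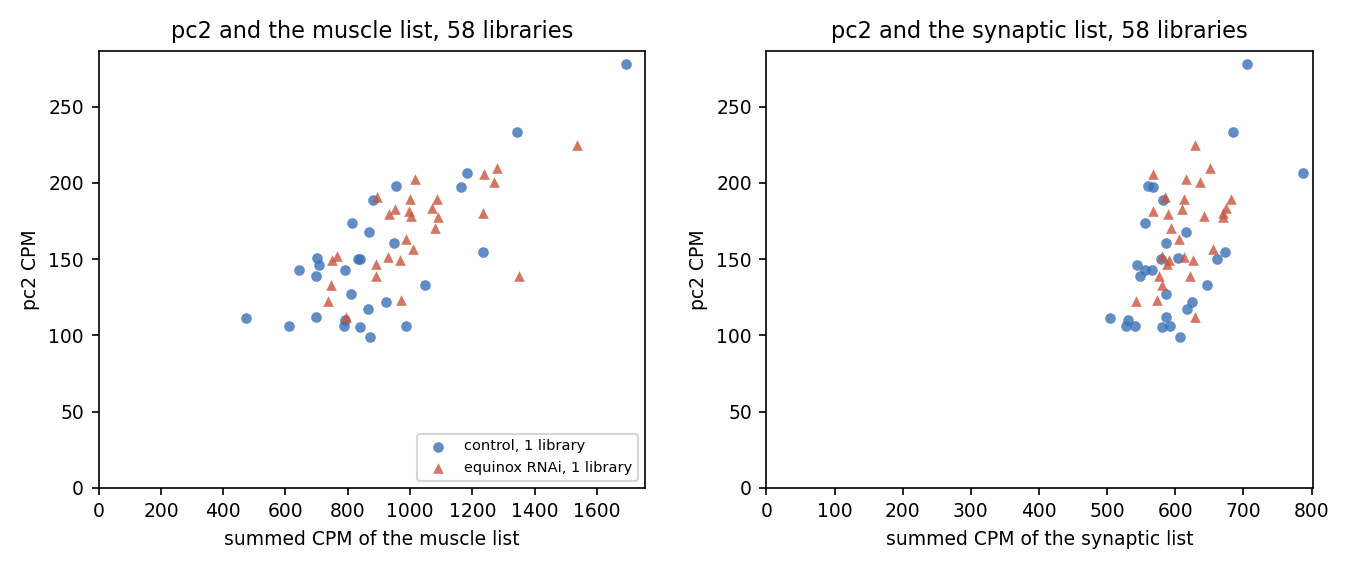
*pc2* CPM against the summed CPM of 6 muscle transcripts (left) and of 18 synaptic transcripts (right), 1 point per library, with circles for control and triangles for *equinox* RNAi. The libraries with the most *pc2* (277.8, 233.3 and 224.6 CPM) also have high muscle sums, at 1694, 1344 and 1536 CPM. Replicate 5 labelled *equinox* RNAi at 0 hpa has a muscle sum of 1350 CPM with 138.7 CPM of *pc2*. Both axes are divided by the same TMM factor.

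The synaptic transcripts of the list, which draws on a part of the annotation only, did not move as 1 group. Of the 18 synaptic transcripts tested (28 in the list), control wounds had 3 called higher and 0 lower at 6 hpa, 4 higher with 3 lower at 16 hpa, 2 higher with 3 lower at 24 hpa, and 4 higher with 3 lower at 48 hpa. These are 16.7%, 38.9%, 27.8% and 38.9% of the 18, against 8.93%, 18.5%, 33% and 29.5% of all transcripts, so the share at 24 hpa was below that of all. The median log2 difference of the list was 0.19, 0.082, -0.0086 and 0.0071 at these times, against -0.017, -0.025, -0.046 and -0.044 over all transcripts. The 3 called at 6 hpa, named after their values were seen, matched GABRB2 (dd_10171, a subunit of the GABA-A receptor, 0.51), GALR2 (dd_10325, a galanin receptor, 0.55) and VAMP2 (dd_10790, a SNARE of synaptic vesicles, 0.57).

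At 48 hpa in control the largest synaptic change was a fall of dd_10130, matching the metabotropic glutamate receptor GRM3 (log2 -1.54, SE 0.15, adjusted p = 5.96e-12). dd_1019, which matches SYNJ1, a phosphatase of vesicle recycling, fell too (-0.74, adjusted p = 1.39e-05). The neuropeptide receptor match NPY2R (dd_10020) rose by 0.63 (adjusted p = 6.29e-05), and VAMP2 (dd_10790) by 0.46 (adjusted p = 0.0148). So receptors and vesicle proteins were called in both directions in the same wounds, while *pc2* and *chat* themselves were not called at this time.

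Of the acetylcholine pathway beside *chat*, the list held 2 tested transcripts. The first, dd_10322, matching the nicotinic receptor subunit CHRNB3, had a mean of 23.0 CPM and was called in control at 24 hpa only among the time comparisons of control, with a fall of 0.30 (log2 -0.30, adjusted p = 0.0272). dd_10334, matching the esterase BCHE, which breaks down choline esters, had a mean of 27.4 CPM. At 48 hpa it was called higher with *equinox* dsRNA than with *unc-22* dsRNA (log2 0.44, SE 0.11, adjusted p = 0.00242), a time at which the value of *chat* was 0.28 and not called.

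Between treatments at 48 hpa, 3 of the 18 synaptic transcripts were called higher and 1 lower in *equinox* RNAi, which is 22.2% against 17.5% of all transcripts. The others called higher matched GALR2 (dd_10325, 0.54, adjusted p = 0.0204) and the glutamate receptor subunit GRIA4 (dd_10048, 0.28, adjusted p = 0.0471), and NPY2R (dd_10020) was lower (-0.43, adjusted p = 0.0100). At 3 hpa, where *pc2* was called, 0 of the 18 were called in either direction, against 11.3% of all transcripts. The median log2 difference of the list was 0.13 at that time, against 0.019 over all transcripts.

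Transcripts of the other lists were called at 48 hpa in control against 0 hpa, where 29.5% of all transcripts were called and *pc2* and *chat* missed the threshold (adjusted p = 0.0838 and 0.0609, edgeR, called in 2 and 6 of 8 alternatives). Of the cell division list, 5 of 6 transcripts were called higher and 0 lower, among them dd_10217 (WDHD1, a replication factor, 0.77), dd_10404 (RNASEH2A, a subunit of ribonuclease H2, 0.70), dd_10335 (CDC20, an activator of the anaphase-promoting complex, 0.69) and dd_10448 (ANAPC1, a subunit of that complex, 0.48). In the same comparison 3 of 6 muscle transcripts were called lower and 0 higher, namely dd_10318 (LDB3, a Z-disc protein, -1.09), dd_10174 (ACTN2, sarcomeric alpha-actinin, -0.96) and dd_10293 (FHL3, a LIM domain protein of muscle, -0.87). Of 10 cilia transcripts, 2 were called in each direction, a share of 40% that is not far from that of all transcripts: dd_10191 (DNAH17, 0.68) and dd_10562 (TRAF3IP1, 0.36) rose and dd_10244 (TTLL3, -0.41) and dd_10425 (DNAH10, -0.35) fell.

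In *equinox* RNAi against control at 48 hpa, where 17.5% of all transcripts were called, 3 of 6 cell division transcripts were called lower, dd_10323 (AURKC, an Aurora kinase, -0.60), dd_10404 (RNASEH2A, -0.60) and dd_10335 (CDC20, -0.59). The muscle list had 3 of 6 called higher, dd_10318 (LDB3, 1.29), dd_10174 (ACTN2, 0.67) and dd_10785 (COL21A1, a collagen, 0.34), and the cilia list 3 of 10 higher, dd_10425 (DNAH10, 0.37), dd_10638 (IFT172, 0.29) and dd_10244 (TTLL3, 0.28). Against these, the values of 0.23 for *pc2* and 0.28 for *chat* were of the same sign as the muscle calls and smaller, and neither passed the test.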

How the data were processed

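Reads (50 bp) were mapped by the authors against dd_Smed_v6 contigs and added up per transcript, and the deposited table holds these raw counts for 28742 transcripts and 58 libraries. The submitters' processing notes name cutadapt 1.8, Bowtie 1.2, SAMtools 1.6 and DESeq (the methods name an earlier Bowtie). All columns were mapped to samples (0 left over) and grouped by title.

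The 12 groups entered a single robust quasi-likelihood fit with TMM factors (edgeR 4.0.16, R 4.3.3), after filterByExpr with a minimum count of 10. Adjusted p is Benjamini-Hochberg over 20129 transcripts, with a threshold of 0.05. An SE is the fold change divided by the root of F, and a 95% interval is 1.96 SE either way. This normal approximation is slightly narrower than the test. For *pc2* in *equinox* RNAi at 6 and 48 hpa the interval leaves out 0 at an unadjusted p of 0.0508 and 0.05025 (edgeR). Log2 CPM used a prior count of 2. No pair of libraries in a group agreed within sampling noise (lowest chi-square per degree of freedom 2.59), and the mitochondrial share of counts was 0.264% to 0.652%. The fit was tested on simulated data.

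The members and lists were chosen with earlier results of these data known. Named were *pc2*, *chat* and *equinox* always, up to 4 called members per list with the largest change in control at 48 against 0 hpa and between treatments at 48 hpa, and the 5 transcripts most correlated with each member. The synaptic transcripts called at 6 hpa in control and the acetylcholine receptor match (dd_10322) fall outside this rule and were named after their values were seen. Deviations of equal replicate numbers (14135 transcripts) correlated above 0.1 in every pair in 2 of 16 comparisons, *equinox* RNAi against control at 16 hpa (0.115 to 0.714) and *equinox* RNAi at 16 against 0 hpa (0.325 to 0.636), and the labels name no shared batch. Alternatives were RLE factors, library totals, DESeq2 1.42.0, no filter, a replicate block, fits of only the groups compared, the 5 libraries with disagreeing labels left out or moved, and each library left out. No transcript sequence was used here.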

Additional observations from a re-analysis of the deposited data

Results flagged for a closer look

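In 4 of 36 sets of values (3 measures in 12 groups) 1 library lay far from the rest of its group by Dixon's criterion, which chance gives in about 1 of 20 groups. *pc2* in control at 3 hpa had its highest value in replicate 5, 127 CPM, against 106.1 to 111.8 CPM in the others. *chat* in control at 6 hpa had 92.6 CPM in replicate 5, against 43.6 to 56.0 CPM. The ratio of *pc2* to *chat* was 2.47 in control replicate 3 of 0 hpa, against 1.95 to 2.06, and 2.62 in *equinox* RNAi replicate 4 of 48 hpa, against 1.96 to 2.09.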

How the results depend on the processing

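No filter changed no call or direction, and *pc2* in control at 24 hpa was called under every alternative run. With RLE factors *pc2* between treatments at 3 hpa was not called (0.52), and *chat* in control at 48 hpa was (0.40). With library totals alone, which moved the median of all transcripts by up to 0.16, *pc2* between treatments was 0.36 at 3 hpa (not called) and -0.028 at 6 hpa, *pc2* in control was 0.053 at 3 hpa and 0.43 at 48 hpa (called), and *chat* at 48 hpa was 0.40 in control and 0.42 with *equinox* dsRNA (both called), -0.055 in *equinox* RNAi at 6 hpa, and -0.088 for the interaction at 3 hpa. With the replicate block *pc2* and *chat* in control at 48 hpa were called (0.44 and 0.41), *chat* in *equinox* RNAi at 24 hpa was 0.0071, and no other call changed, also in the 2 comparisons whose pairs all correlated. Without the 5 libraries with disagreeing labels *pc2* between treatments at 6 hpa was -0.065, *chat* between treatments at 24 hpa -0.00056, *chat* in *equinox* RNAi at 6 hpa -0.036, and *chat* in control at 48 hpa 0.39 (called). Placed by their time field, they gave 0.43 for *chat* between treatments at 3 hpa (called), -0.026 for *pc2* between treatments at 6 hpa, 0.10 and 0.13 for *chat* in *equinox* RNAi at 3 and 24 hpa, and a median ratio of 2.62 in *equinox* RNAi at 6 hpa. DESeq2 called *chat* in control at 48 hpa (0.40). With only the groups compared, *pc2* in control at 6 hpa was 0.62 (not called) and *chat* at 48 hpa 0.40 (called). The causes were not tested.

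Leaving out 1 library at a time gave for *pc2* in control -0.10 to 0.073 at 3 hpa, 0.39 to 0.73 at 6 hpa, 0.37 to 0.64 at 16 hpa and 0.30 to 0.56 at 48 hpa. Between treatments *pc2* ran from 0.45 to 0.62 at 3 hpa, -0.082 to 0.25 at 6 hpa, -0.021 to 0.21 at 16 hpa and -0.095 to 0.049 at 24 hpa, and its interaction from -0.18 to 0.066 at 48 hpa. *chat* ran in control from -0.12 to 0.20 at 6 hpa, -0.074 to 0.079 at 16 hpa and 0.31 to 0.46 at 48 hpa, and in *equinox* RNAi from -0.041 to 0.10 at 6 hpa, -0.10 to 0.060 at 24 hpa and 0.33 to 0.49 at 48 hpa. Between treatments at 6 hpa *chat* ran from 0.080 to 0.39 (called without control replicate 5 of 6 hpa, adjusted p = 0.0495, edgeR), and its interaction from -0.061 to 0.13 at 3 hpa, -0.16 to 0.16 at 6 hpa and -0.044 to 0.12 at 48 hpa. Depth limits the smallest library most, where the counting error of *chat* was 11.7%.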
